A study of Mus musculus with 6 samples.

Results

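The serpins are a family of proteins that share 1 fold, most of which inhibit serine or cysteine proteases. Their genes were described in RNA from whole liver of C57BL/6 mice aged 10 weeks, in libraries of polyadenylated RNA, to see how levels of the family compare between mice with and without hepatocyte Pak4. Every row of the deposited gene table with the biotype protein_coding and a symbol of the form Serpin, a clade letter from a to i and a number was taken, which gave 63 genes of 45777. The WT group held 3 libraries from Pak4 flox/flox mice, in which both Pak4 alleles carry sites for Cre recombinase but no Cre is present. The Pak4_KO group held 3 libraries from Pak4 flox/flox mice that also carry Alb-Cre. The albumin promoter of this transgene drives Cre in hepatocytes, and other liver cells keep Pak4. Both groups therefore carry the floxed alleles, and no group used here holds Alb-Cre without them. Library totals ran from 39603272 to 52521400 reads. The labels do not say that each library is a separate animal, so the p-values here rest on differences among libraries that may be technical.

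A serpin presents an exposed reactive centre loop as bait. When a protease cuts the loop, the serpin folds it into its own body and traps the protease in a covalent complex that is then cleared. Clade A holds secreted plasma proteins made mainly by hepatocytes, among them alpha-1-antitrypsin, which guards tissue against neutrophil elastase. Clade B holds proteins that stay inside cells and guard them against their own granule proteases. Single members of the other clades control coagulation (antithrombin, heparin cofactor II), fibrinolysis (alpha-2-antiplasmin) and complement (C1 inhibitor), and a few, such as hormone carriers and a collagen chaperone, inhibit no protease.

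Mice have several alpha-1-antitrypsin genes where humans have 1. The coding stretch in which the paralogs differ most is shown first, because it begins just past the hinge of the loop. The loop decides which protease is bound. The coding sequences of Serpina1a to Serpina1e, read from GENCODE M21 transcripts (GRCm38), each had 1239 bases, and all 10 pairs were between 96.29% and 98.47% identical. Of these 1239 positions, 86 differed in at least 1 of the 5 genes. Among all windows of 90 bases, the most variable ran from coding base 1105 to 1194, with 20 variable positions against a median of 5 per window. It covers codons 369 to 398 and begins downstream of the conserved hinge of the loop, which a search for its residues placed at codon 363 of 413 in each gene. The stretches therefore leave out the hinge. Where the loop ends was not determined, so some of the variable bases may lie past it. The 5 stretches, all on the minus strand of chromosome 12, are given 5′ to 3′ with the variable bases in capitals.
Serpina1a (chr12:103853723-103853812): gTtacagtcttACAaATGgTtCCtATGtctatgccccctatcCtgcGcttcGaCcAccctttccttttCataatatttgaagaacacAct
Serpina1b (chr12:103728290-103728379): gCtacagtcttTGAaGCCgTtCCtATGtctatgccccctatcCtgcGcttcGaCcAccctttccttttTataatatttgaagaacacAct
Serpina1c (chr12:103895060-103895149): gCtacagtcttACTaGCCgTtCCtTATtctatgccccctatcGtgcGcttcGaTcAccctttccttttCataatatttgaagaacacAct
Serpina1d (chr12:103763728-103763817): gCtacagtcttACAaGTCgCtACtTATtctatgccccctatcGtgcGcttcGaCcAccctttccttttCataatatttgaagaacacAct
Serpina1e (chr12:103947066-103947155): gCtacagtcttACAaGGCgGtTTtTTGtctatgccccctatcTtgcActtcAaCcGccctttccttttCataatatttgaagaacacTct

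The promoters of the same genes are shown because all 5 genes stood above 1000 TPM in WT. Any part of these sequences in differences between genotypes was not tested. The 100 bases below come from RefSeq promoter windows (GRCm38.p6), which exist for 54 of the 63 members. They were aligned on the shared run that holds the letters GTTAAT, a half-site of the hepatocyte factor HNF1, and end at or before each gene's annotated start. Capitals mark the 10 positions at which the genes differ, and the other 90 are identical in all 5.
Serpina1a (chr12:103863625-103863724): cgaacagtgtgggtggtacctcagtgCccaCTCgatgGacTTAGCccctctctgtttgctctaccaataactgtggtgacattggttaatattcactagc
Serpina1b (chr12:103738200-103738299): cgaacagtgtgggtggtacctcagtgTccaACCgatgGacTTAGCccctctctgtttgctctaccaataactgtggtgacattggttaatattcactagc
Serpina1c (chr12:103904962-103905061): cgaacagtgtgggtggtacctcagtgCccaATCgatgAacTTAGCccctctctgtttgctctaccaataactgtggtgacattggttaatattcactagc
Serpina1d (chr12:103773634-103773733): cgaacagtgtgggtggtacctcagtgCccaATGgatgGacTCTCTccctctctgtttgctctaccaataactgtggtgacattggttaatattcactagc
Serpina1e (chr12:103956960-103957059): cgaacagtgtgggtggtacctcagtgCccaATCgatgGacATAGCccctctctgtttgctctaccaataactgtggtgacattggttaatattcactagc

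Searched on both strands over the full windows (250 bases before to 50 after the start), GTTAAT occurred in 5 of 5 Serpina1 windows and in 8 of 22 clade A windows (36.4%), against 7.1% of the 32851 windows of all genes. The STAT letters TTCNNNGAA occurred in 0 of 5 Serpina1 windows and in 7 of 22 clade A windows (31.8%), against 8.3% of all windows. The Serpina1 windows were aligned on a run that holds GTTAAT, so the 5 of 5 follows from that choice. These 5 windows are also among the 22 of clade A and are counted in its 8. Windows of neighbouring paralogs share sequence, so these are not independent occurrences.

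Of the 63 genes, 34 had enough reads to be tested between genotypes, and which ones those were followed the clades. In clade A, 19 of 24 genes were tested, and in clade B 6 of 28. All genes of clades C, D, F, G and H were tested, with 1 of 2 in clade I. Of the 29 untested genes, 18 had 0 reads in all 6 libraries. They were Serpina16 and Serpina1f, 15 clade B genes (Serpinb2, Serpinb3a to Serpinb3d, Serpinb6d, Serpinb6e, Serpinb9d to Serpinb9h, Serpinb11, Serpinb12 and Serpinb13) and Serpini2. A count of 0 over these 277303660 reads allows a level of up to 0.0108 CPM (reads scaled to 1000000 per library; a floor of 3 reads, counting error only). The other 11 had between 2 and 23 reads over all libraries, with Serpina3a the highest. They were Serpina3a, Serpina3b, Serpina3j, Serpinb1b, Serpinb1c, Serpinb5, Serpinb6c, Serpinb7, Serpinb9b, Serpinb9c and Serpine3.

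Levels between genes were compared in TPM, which is scaled by gene length. Serpin transcripts made up 5.18% ± 0.341 of all TPM in WT (SD, n = 3) and 4.52% ± 0.444 in Pak4_KO (SD, n = 3). By library this was 5.22%, 4.83% and 5.51% in WT and 4.91%, 4.63% and 4.04% in Pak4_KO, so WT replicate 2 stood below Pak4_KO replicate 1. Clade A held between 94% and 95.2% of the serpin TPM in each library. Serpina3k alone held 34.3% to 39.1%, Serpina1a to Serpina1e together 41% to 50.2%, and Serpina3m with Serpina3n 6.38% to 12.1%. Clade B, the clade with the most genes, held 0.0514% to 0.0973%.

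In WT, 9 tested genes stood at 1000 TPM or more, 7 at 100 to 1000, 8 at 10 to 100, 6 at 1 to 10 and 4 under 1. Serpina3k, a contrapsin gene related to human alpha-1-antichymotrypsin, led at 18833 ± 2033 TPM (SD, n = 3). Serpina1e (6088 ± 973), Serpina1b (5842 ± 781) and Serpina1c (5820.2 ± 217) came next and did not differ beyond their spread. Serpina1a (3833 ± 338), Serpina1d (2820.1 ± 173), Serpina3m (2411 ± 616) and Serpina3n (2278 ± 796) followed, the last 3 with overlapping libraries. The highest gene outside clade A was Serpinc1, antithrombin, at 1182 ± 58.4 TPM. At the other end, Serpinb10 stood at 0.101 ± 0.0942 TPM and Serpini1 at 0.145 ± 0.0700 TPM.

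**Figure D1:**
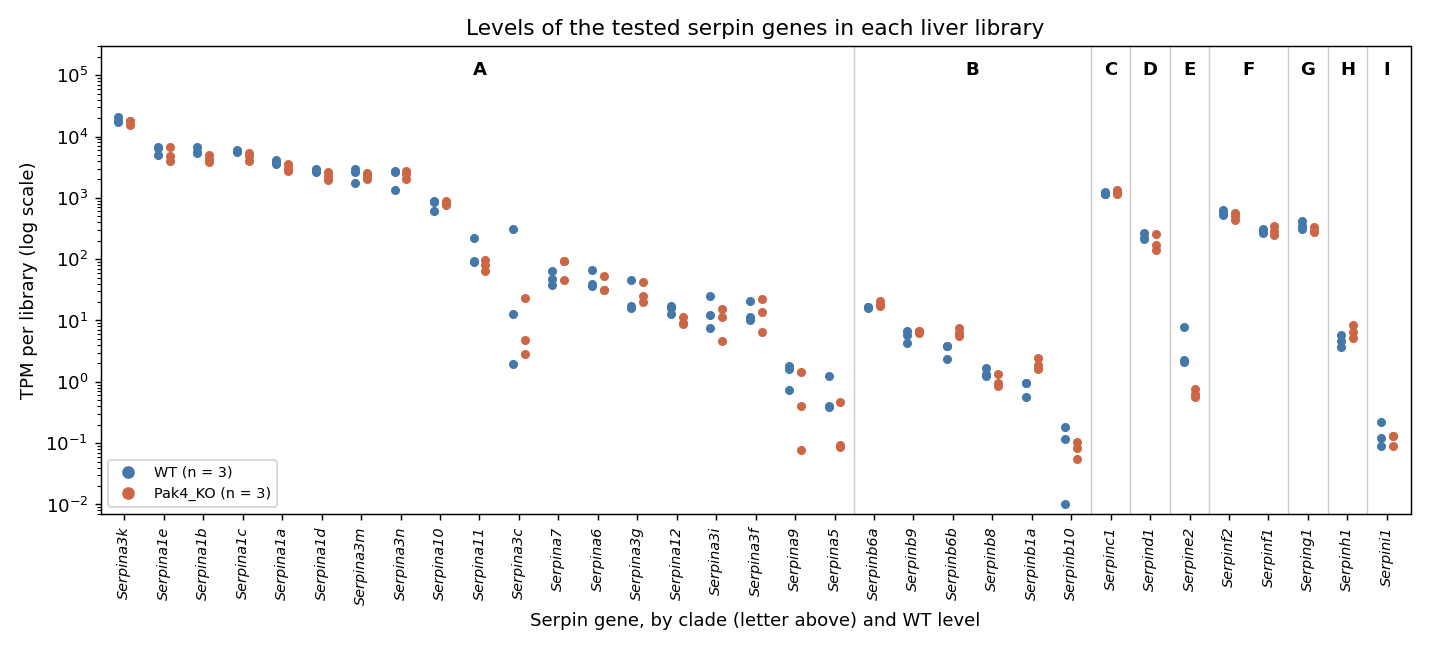
TPM of 33 tested serpin genes on a log axis, 1 point per library, blue for WT and orange for Pak4_KO (n = 3 each), grouped by clade and ordered by WT level. Levels span from Serpina3k at 18833 TPM in WT to under 1 TPM, and the point of Serpinb10 at 0 TPM is drawn at 0.01.

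Apart from Serpina7 on chromosome X, the clade A genes lie in 1 cluster of 798 kb on chromosome 12. Neighbours in that cluster stood at very different levels. Serpina1f, with 0 reads, lies next to Serpina1b at 5842 TPM, and Serpina3j, at 0.0584 TPM in WT, lies next to Serpina3k at 18833 TPM. Between the Serpina1 run and the Serpina3k, Serpina3m and Serpina3n run, the 11 genes from Serpina11 to Serpina3j stood between 0.0139 and 133 TPM in WT. The clade B genes form a cluster of 748 kb on chromosome 1 with 2 of 12 tested, and a cluster of 1161 kb on chromosome 13 with 4 of 16 tested.

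**Figure D2:**
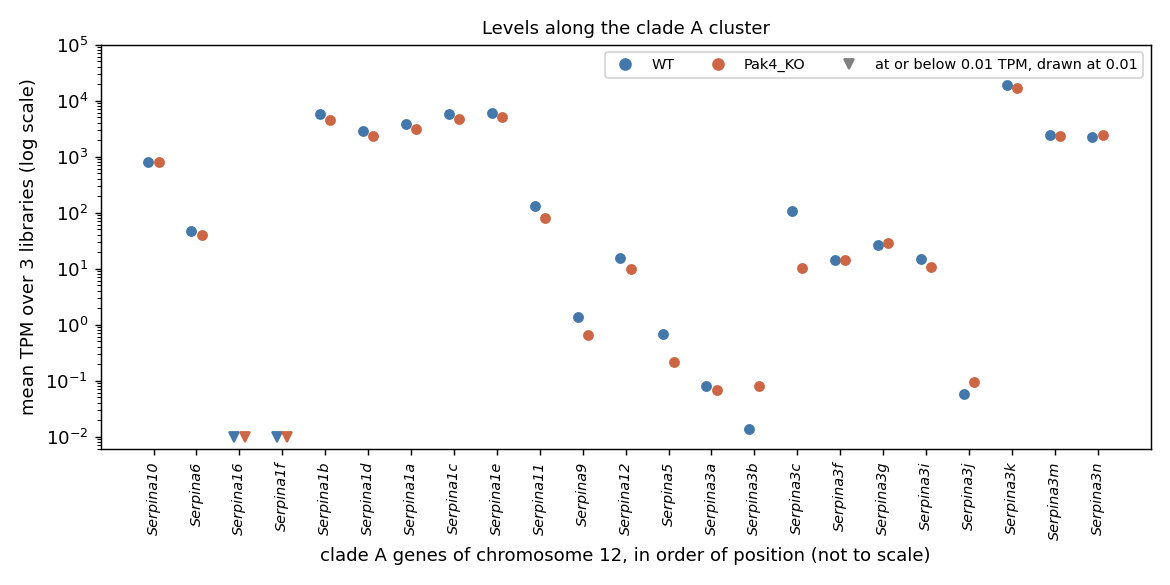
Mean TPM over 3 libraries (log axis) of the 23 clade A genes of chromosome 12, placed in order of position but not to scale, blue for WT and orange for Pak4_KO. The 5 Serpina1 genes and the run from Serpina3k to Serpina3n stand out over their neighbours in both groups, and triangles mark genes at or below 0.01 TPM.

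Reads can be shared between near-identical paralogs, and how the authors' counting assigned such reads is not given in the sources used here. Of all windows of 100 bases in the longest transcript, 58.5% of Serpina1c, 47.4% of Serpina1a, 26.3% of Serpina1d, 19.2% of Serpina1b and 14.8% of Serpina1e occur exactly in another serpin gene's transcripts. In Serpina3k this share was 4.85%, in Serpina3m 6.09% and in Serpina3n 0.204%. Values of single Serpina1 genes are therefore uncertain, and their sum is given beside them.

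Pak4, the deleted gene, checked the labels. It stood at 5.93, 7.15 and 6.44 CPM in WT and at 1.37, 2.24 and 1.90 CPM in Pak4_KO (log2 fold change -1.82, SE 0.24, edgeR adjusted p = 0.0169). The summed CPM of 11 hepatocyte markers, among them Alb and Apob, lay between 77700 and 97550 in WT and between 84710 and 94980 in Pak4_KO; these markers were abundant in all 6 libraries. In bulk RNA, fewer cells of a type and less RNA per cell cannot be told apart.

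Between genotypes, 0 of the 34 tested serpin genes were called higher and 0 lower by edgeR's quasi-likelihood test at an adjusted p under 0.05. Of all 16197 tested genes 0.469% were called, 0.265% higher and 0.204% lower. At an unadjusted p under 0.05 there were 7, of which 2 were higher and 5 lower in Pak4_KO, beside 8.21% of all tested genes. The 5 lower genes were Serpine2, Serpina12, Serpina1b, Serpina5 and Serpina11, and the 2 higher genes Serpinb1a and Serpinb6b. The DESeq2 Wald test, run as an alternative, called 3 serpin genes, beside 1.6% of all genes with an adjusted p in that test. It called Serpine2 lower (adjusted p = 6.21e-05), Serpina12 lower (adjusted p = 0.0097) and Serpinb6b higher (adjusted p = 0.0390).

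The log2 fold change was negative for 27 of the 34 tested genes and positive for 7, beside 49.3% negative over all tested genes, and its median was -0.35 beside 0.004 over all tested genes. In clade A 17 of 19 were negative (median -0.37), and in clade B 2 of 6 (median 0.13). In 9 of the 34 genes the groups did not overlap, 7 of them lower and 2 higher in Pak4_KO, beside 13.4% of all tested genes, of which 6.06% were lower and 7.35% higher. The 7 lower genes were Serpina1a, Serpina1b, Serpina1c, Serpina12, Serpinb8, Serpine2 and Serping1. All 5 Serpina1 paralogs are among the 27 negative genes. They share sequence and may share reads, so these counts are not of independent genes. Pak4_KO replicate 3 held the lowest value of the 6 libraries for 17 of the 34 genes, and WT replicate 2 for 10. WT replicates 1 and 3 each held the highest value for 10. The median coefficient of variation over all 6 libraries was 28.1% for the serpin genes and 19.9% for all tested genes.

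**Figure D3:**
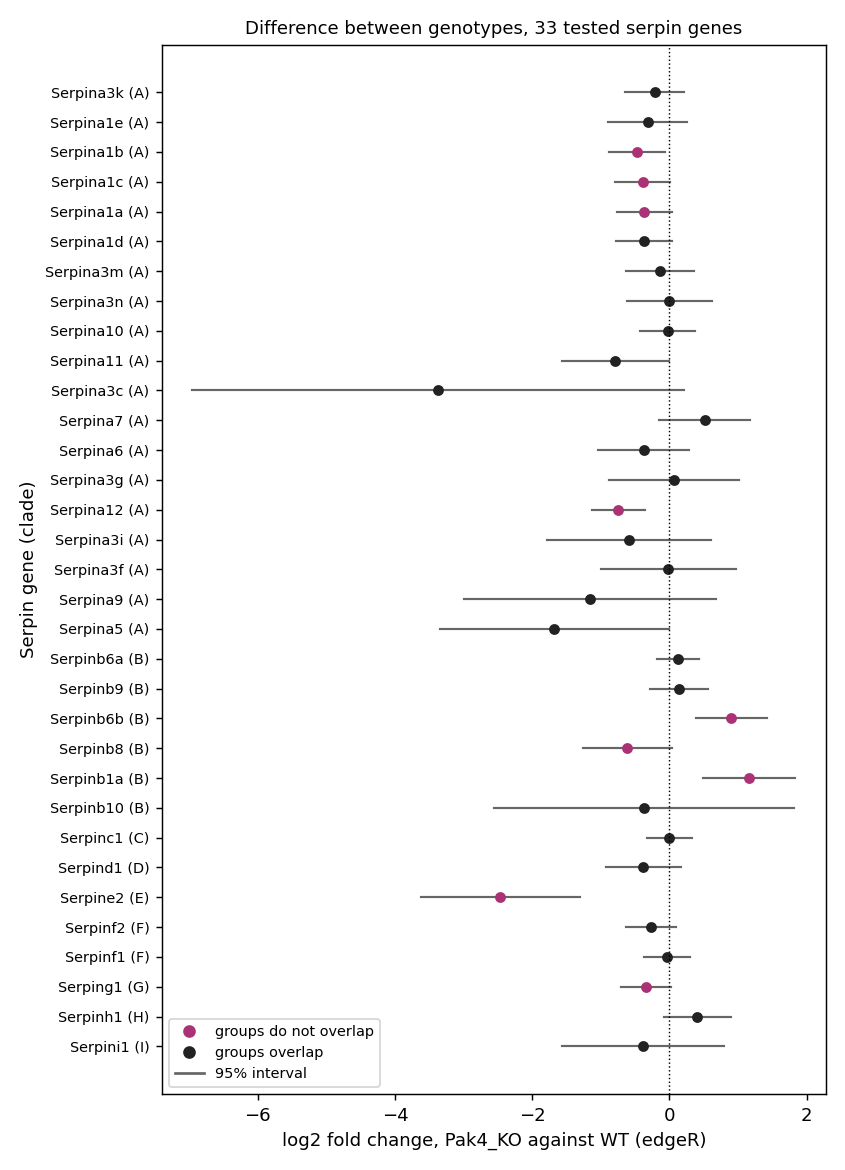
Log2 fold change of Pak4_KO against WT from edgeR for 33 tested serpin genes, with the clade in brackets, points for the estimate (purple where the groups do not overlap, black where they do) and lines for its 95% interval. Unadjusted intervals of 7 genes (Serpine2, Serpina12, Serpina1b, Serpina5, Serpina11, Serpinb1a and Serpinb6b) lie on 1 side of 0, while 0 genes pass the adjusted threshold.

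All 5 alpha-1-antitrypsin genes had lower means in Pak4_KO, by amounts that did not pass the test. Serpina1b, with the smallest p of the 5, stood at 5616, 4693 and 4845 CPM in WT and at 4134, 3756 and 3007 CPM in Pak4_KO. Each Pak4_KO library was below each WT library (log2 fold change -0.48, SE 0.18, edgeR adjusted p = 0.508). Serpina1a stood at 4229, 4061 and 3758 CPM in WT and at 3583, 3233 and 2549 CPM in Pak4_KO, again with no overlap (-0.36, SE 0.17, adjusted p = 0.650). Serpina1c was the steadiest of the 5 in WT, at 5056, 5022 and 5043 CPM, and stood at 4379, 4098 and 3090.5 CPM in Pak4_KO (-0.39, SE 0.18, adjusted p = 0.630).

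In the other two paralogs the groups overlapped. Serpina1d stood at 2213, 2589.7 and 2632 CPM in WT and at 2224, 1983 and 1553 CPM in Pak4_KO (-0.37, SE 0.18, adjusted p = 0.655). Serpina1e stood at 3993, 5618 and 5717 CPM in WT and at 5359, 4012 and 2935 CPM in Pak4_KO (-0.32, SE 0.25, adjusted p = 0.831). In all 5 genes Pak4_KO replicate 3 was the lowest library. In WT replicate 1 Serpina1e held 20.2% of the TPM of the 5 genes, against 23.8% to 28.9% in the other 5 libraries, and Serpina1b 27.4%, against 21.5% to 23.5%.

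Summed over the 5 genes, alpha-1-antitrypsin stood at 21108, 21983 and 21993 CPM in WT and at 19681, 17083 and 13134 CPM in Pak4_KO. If each shared read was counted 1 time, the sum does not depend on how reads were split among the 5 genes. The counting rule was not stated, so this is not known. The WT libraries lay close together and above all 3 Pak4_KO libraries, which were spread widely. The log2 fold change of the sum was -0.38 (SE 0.20, edgeR adjusted p = 0.686), and it was -0.24 without Pak4_KO replicate 3 and -0.52 without Pak4_KO replicate 1.

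**Figure D4:**
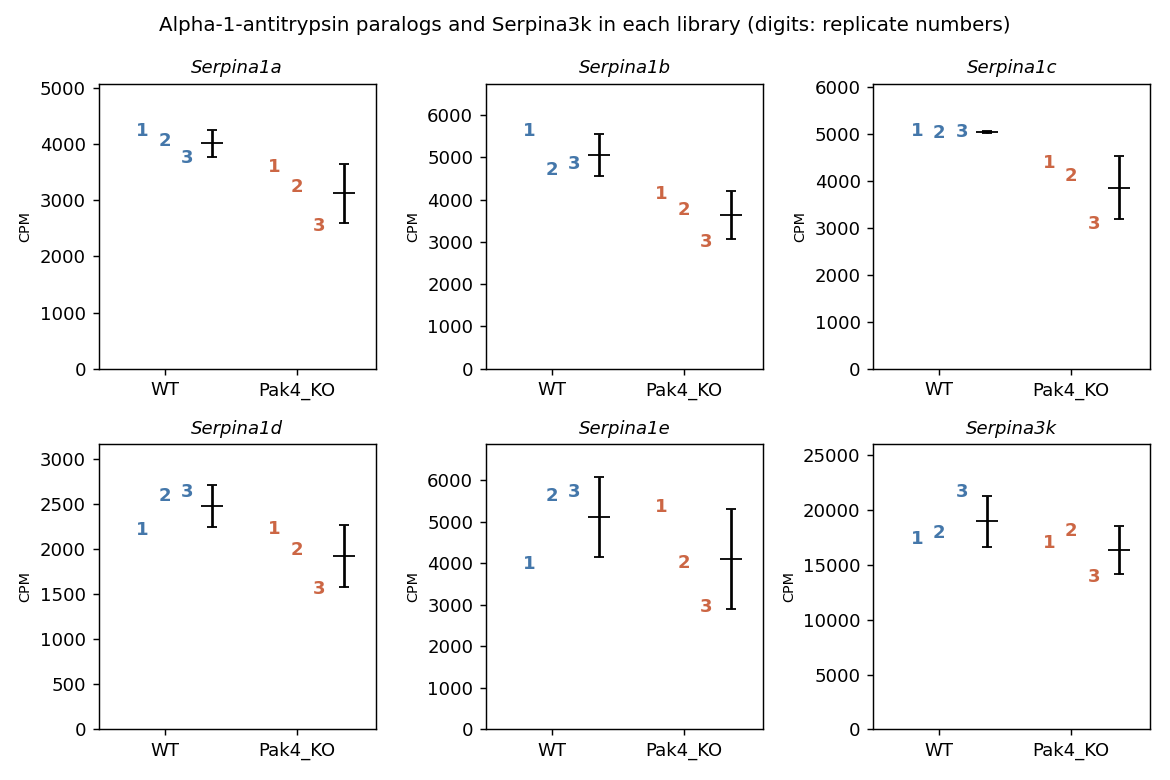
CPM of Serpina1a to Serpina1e and Serpina3k in each library on linear axes from 0, with digits giving the replicate number, a bar for the mean and whiskers for the SD (n = 3 each). Pak4_KO replicate 3 is the lowest library in each of the 6 panels.

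The Serpina3 genes, a mouse expansion of the alpha-1-antichymotrypsin gene, had no called member: 6 of 7 tested were negative (median log2 fold change -0.14) and the groups overlapped in all 7. Serpina3k stood at 17309, 17901 and 21644 CPM in WT and at 17004, 18079 and 13880.5 CPM in Pak4_KO, with overlap (log2 fold change -0.22, SE 0.19, edgeR adjusted p = 0.857). Serpina3n, an acute-phase gene and a granzyme B inhibitor, stood at 3279, 1770.3 and 3612 CPM in WT and at 2443, 3401 and 2809 CPM in Pak4_KO. Serpina3m stood at 2513, 1750.5 and 2954 CPM in WT and at 1907, 2513 and 2135 CPM in Pak4_KO. Both genes were lowest in WT replicate 2, and the 95% interval of the log2 fold change ran from -0.62 to 0.62 for Serpina3n and from -0.63 to 0.36 for Serpina3m. Serpina3f, Serpina3g and Serpina3i, lower-level genes of the cluster, ranged from 4.96 to 49.7 CPM over the 6 libraries, overlapped between groups and had adjusted p from 0.861 to 0.999.

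Serpina3c had the most extreme fold change of the family, and 1 library set it. It stood at 304, 2.08 and 13.3 CPM in WT and at 23.2, 5.04 and 2.58 CPM in Pak4_KO (chromosome 12, 104146907 to 104153929). WT replicate 1 was far above the other libraries, among which the groups overlapped. The log2 fold change was -3.37 (SE 1.56, edgeR adjusted p = 0.642) and turned to 0.39 without WT replicate 1. It was -4.80 without Pak4_KO replicate 1. Summed over the 10 Serpina3 genes, levels were 23512, 21468 and 28273 CPM in WT and 21472, 24060.2 and 18859.5 CPM in Pak4_KO (log2 fold change -0.19, SE 0.19, adjusted p = 0.890).

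Among the remaining clade A genes, Serpina12, which encodes vaspin, an inhibitor of tissue kallikrein 7 known as an adipokine, had the smallest p. It stood at 34.3, 39.4 and 29.6 CPM in WT and at 24.0, 20.003 and 17.7 CPM in Pak4_KO (chromosome 12, 104028769 to 104044443). Every Pak4_KO library was below every WT library, a 1.67-fold difference (log2 fold change -0.74, SE 0.17, unadjusted p = 0.00188, edgeR adjusted p = 0.166). Without 1 library at a time the log2 fold change lay between -0.87 and -0.63. Of the adipose markers in the table, Adipoq and Lep had 0 reads, and the summed CPM of the 5 was 0 to 0.199 in WT and 0.236 to 3.09 in Pak4_KO. The 1 tested marker was higher in Pak4_KO (log2 fold change 5.68, edgeR adjusted p = 0.138). Any part of these markers in the Serpina12 difference was not tested.

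Serpina11, a liver gene of unsettled function, stood at 187, 80.3 and 83.0 CPM in WT and at 68.9, 84.5 and 49.7 CPM in Pak4_KO. Only WT replicate 1 was clear of the Pak4_KO range (log2 fold change -0.79, SE 0.34, edgeR adjusted p = 0.607), and the log2 fold change was -0.28 without it. Serpina5, the protein C inhibitor, which mouse liver hardly makes, stood at 1.59, 0.568 and 0.517 CPM in WT and at 0.590, 0.127 and 0.120 CPM in Pak4_KO (-1.68, SE 0.73, adjusted p = 0.605). WT replicates 2 and 3 stood just below Pak4_KO replicate 1, so its groups overlapped. Its log2 fold change was -0.99 without WT replicate 1 and -2.81 without Pak4_KO replicate 1. Serpina9, a gene of germinal centre B cells, stood between 0.0800 and 2.06 CPM, and its 95% interval of the log2 fold change ran from -3.00 to 0.68 (estimate -1.16, and -2.56 without Pak4_KO replicate 1).

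The hormone carriers of clade A also overlapped between groups. Serpina7, thyroxine-binding globulin, stood at 69.3, 58.6 and 98.6 CPM in WT and at 65.0, 137 and 121 CPM in Pak4_KO (log2 fold change 0.51, SE 0.29, edgeR adjusted p = 0.720). Serpina6, corticosteroid-binding globulin, stood at 37.7, 66.6 and 36.8 CPM in WT and at 49.97, 30.9 and 27.8 CPM in Pak4_KO (-0.38, SE 0.29, adjusted p = 0.826). Serpina10, the protein Z-dependent inhibitor of factor Xa, ranged from 618 to 870.0 CPM over the 6 libraries, with a 95% interval of the log2 fold change from -0.42 to 0.37. Agt, angiotensinogen, a clade A protein whose symbol lacks the family prefix and which is no member here, averaged 1100.3 CPM over the WT libraries and 1100.1 CPM over those of Pak4_KO (edgeR adjusted p = 1).

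In clade B, 2 of the 6 tested genes stood above every WT library in every Pak4_KO library, and 1, Serpinb8, below. Of all tested genes, 7.35% were higher and 6.06% lower in Pak4_KO with no overlap. Serpinb1a, an inhibitor of neutrophil elastase and related granule proteases, stood at 1.11, 0.694 and 1.13 CPM in WT and at 2.12, 1.91 and 2.54 CPM in Pak4_KO (chromosome 13, 32842092 to 32853206). This was 2.24-fold higher (log2 fold change 1.16, SE 0.29, unadjusted p = 0.00393, edgeR adjusted p = 0.243). Serpinb6b, one of the mouse counterparts of human SERPINB6, stood at 4.74, 3.07 and 5.09 CPM in WT and at 7.88, 7.32 and 8.94 CPM in Pak4_KO (chromosome 13, 32956811 to 32979067). This was 1.87-fold higher (log2 fold change 0.90, SE 0.23, unadjusted p = 0.00361, adjusted p = 0.236). Summed over paralogs, the log2 fold change was 1.15 for the Serpinb1 genes (edgeR adjusted p = 0.245) and 0.34 for the Serpinb6 genes (adjusted p = 0.528), again with no overlap between groups.

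Serpinb8, an inhibitor of furin, went the other way, at 2.196, 3.03 and 2.25 CPM in WT and 1.203, 1.61 and 2.06 CPM in Pak4_KO, with no overlap (log2 fold change -0.61, SE 0.28, edgeR adjusted p = 0.642). Serpinb6a, the clade B gene with the highest level, stood at 14.6, 15.3 and 15.3 CPM in WT and at 14.9, 16.7 and 17.6 CPM in Pak4_KO (0.12, SE 0.13, adjusted p = 0.903). Serpinb9, the granzyme B inhibitor that protects cells from cytotoxic lymphocytes, stood at 11.4, 8.96 and 14.0 CPM in WT and at 12.6, 12.9 and 12.4 CPM in Pak4_KO (0.14, SE 0.18, adjusted p = 0.924). Serpinb10 had 51 reads over the 6 libraries and stood between 0 and 0.379 CPM.

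Summed markers of other cell types are given beside the clade B genes, and their part in the clade B differences was not tested. The groups did not overlap in the neutrophil sum, lower in Pak4_KO, and in the sum for B, T and plasma cells, higher in Pak4_KO. They overlapped in the other sums of this paragraph. The adipose and mesothelial sums, given with Serpina12 and Serpine2, did not overlap either, the first higher and the second lower in Pak4_KO. The summed CPM of 10 neutrophil markers lay between 36.4 and 62.7 in WT and between 23.6 and 30.2 in Pak4_KO, with 7 of 7 tested markers negative and 0 called. The summed CPM of 7 cholangiocyte markers lay between 41.0 and 59.8 in WT and between 54.4 and 83.8 in Pak4_KO, with 6 of 7 positive and 0 called. For B, T and plasma cells the 8 markers summed to 4.29 to 5.09 CPM in WT and 8.80 to 12.3 CPM in Pak4_KO, with 3 of 6 tested markers positive and 0 called. The 10 Kupffer cell and macrophage markers summed to 392.9 to 479.7 CPM in WT and 326 to 401 CPM in Pak4_KO, with 10 of 10 negative and 0 called. The 8 mast cell and cytotoxic markers, of which Mcpt4 had 0 reads, summed to 6.94 to 11.9 CPM in WT and 7.64 to 8.99 CPM in Pak4_KO. The 8 endothelial markers summed to 236 to 303 CPM in WT and 250 to 350 CPM in Pak4_KO, with 8 of 8 positive and 0 called.

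Of the inhibitors of coagulation and complement, 0 were called. Serpinc1, antithrombin, which blocks thrombin and factor Xa, stood at 1398, 1396 and 1468 CPM in WT and at 1524, 1486 and 1240.2 CPM in Pak4_KO. Its log2 fold change was -0.004 with a 95% interval from -0.33 to 0.32. Serpind1, heparin cofactor II, a second thrombin inhibitor, stood at 269, 361 and 299 CPM in WT and at 328, 219.8 and 167 CPM in Pak4_KO, with overlap (log2 fold change -0.38, SE 0.24, edgeR adjusted p = 0.763). Serping1, the C1 inhibitor, stood at 366, 469 and 356 CPM in WT and at 350.3, 304 and 282 CPM in Pak4_KO. Its groups did not overlap, though WT replicate 3 and Pak4_KO replicate 1 were close (-0.35, SE 0.16, adjusted p = 0.638).

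In clade F, Serpinf2, alpha-2-antiplasmin, the main inhibitor of plasmin, stood at 799, 711 and 801 CPM in WT and at 729, 660.1 and 525 CPM in Pak4_KO (log2 fold change -0.27, SE 0.16, edgeR adjusted p = 0.732). Serpinf1, pigment epithelium-derived factor, a secreted member that inhibits no protease, stood at 266, 267 and 251 CPM in WT and at 306, 228 and 232 CPM in Pak4_KO (-0.03, SE 0.15, adjusted p = 0.989).

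In clade E, Serpine2, protease nexin 1, an inhibitor of thrombin and plasminogen activators, had the smallest p of the family, at 9.56, 2.71 and 2.92 CPM in WT and 0.802, 0.931 and 1.00 CPM in Pak4_KO (chromosome 1, 79794317 to 79858665). The Pak4_KO libraries lay close together below all WT libraries, and WT replicate 1 lay far above the other two. The difference was 5.52-fold (log2 fold change -2.46, SE 0.51, unadjusted p = 0.0011, edgeR adjusted p = 0.122). Without WT replicate 1 the log2 fold change was -1.64 (adjusted p = 0.0956). The 4 mesothelial markers, of which Krt5 had 0 reads, summed to 4.16, 2.48 and 1.31 CPM in WT and to 0.566, 0.868 and 1.28 CPM in Pak4_KO. Their part in the Serpine2 difference was not tested.

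**Figure D5:**
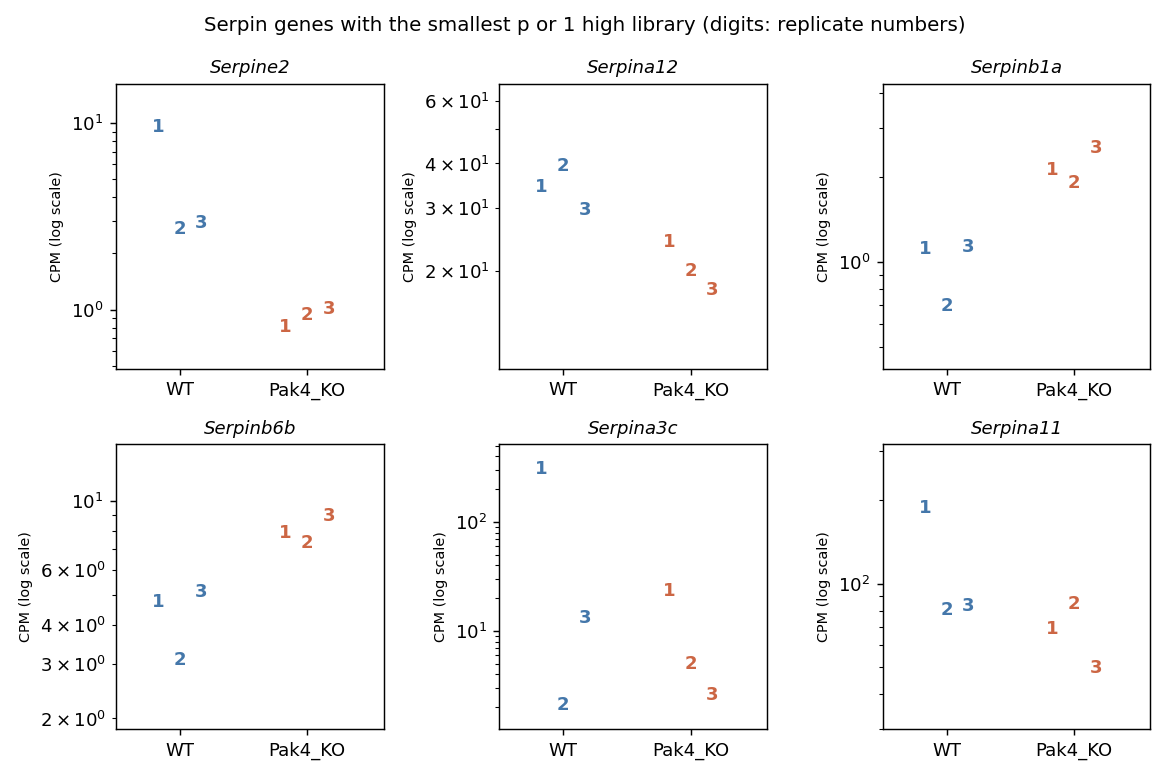
CPM (log axis) in each library for Serpine2, Serpina12, Serpinb1a, Serpinb6b, Serpina3c and Serpina11, with digits giving the replicate number within WT (blue) and Pak4_KO (orange). The first 4 genes do not overlap between groups, while Serpina3c and Serpina11 have 1 high WT library each, at 304 and 187 CPM.

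Serpinh1, the endoplasmic reticulum chaperone of collagen, also called HSP47, stood at 7.65, 6.44 and 5.29 CPM in WT and at 8.47, 6.92 and 10.2 CPM in Pak4_KO (log2 fold change 0.41, SE 0.21, edgeR adjusted p = 0.695). Markers of stellate cells and matrix, the cells that make collagen in liver, summed to 205 to 310 CPM in WT and 196 to 374 CPM in Pak4_KO over 9 genes, with 8 of 9 positive and 0 called. Of all tested genes, 49.3% were negative and 0.469% were called. Serpini1, neuroserpin, stood at 0.177, 0.253 and 0.457 CPM in WT and at 0.189, 0.254 and 0.240 CPM in Pak4_KO, with overlap (-0.38, SE 0.51, adjusted p = 0.927). Serpini2, a gene of the exocrine pancreas, had 0 reads, as did 8 of 9 exocrine pancreas markers. The remaining marker, Cela1, had reads in every library and averaged 11.04 CPM over the WT libraries and 5.50 CPM over those of Pak4_KO.

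The proteases that serpins act on showed no called gene either. Of 27 tested proteases and cofactors, 0 were called, beside 0.469% of all tested genes. The log2 fold change was negative for 25, beside 49.3% of all tested genes, with a median of -0.26 beside 0.004. Several, among them F2, F7, F9, F10, Plg and Kng1, were lowest in Pak4_KO replicate 3, while Fga and Masp1 were lowest in other libraries. Genes of 1 list can vary together, so counts here and in the lists below are not of independent genes. Plat, tissue plasminogen activator, a target of Serpine2, averaged 1.07 CPM over the WT libraries and 2.57 CPM over those of Pak4_KO (log2 fold change 1.27, SE 0.33, edgeR adjusted p = 0.255). Cela1, an elastase, averaged 11.04 and 5.50 CPM (-1.01, SE 0.37, adjusted p = 0.503).

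Over all tested genes, 0.469% were called and 49.3% had a negative log2 fold change. Genes of secretory folding, export and the degradation of misfolded proteins had 0 of 21 called and 19 negative, with a median log2 fold change of -0.17. The smallest p-values were those of Edem1, which hands misfolded glycoproteins to degradation (log2 fold change -0.33, SE 0.13, edgeR adjusted p = 0.542), and Pdia3, a disulfide isomerase (-0.28, SE 0.14, adjusted p = 0.664). Among 7 clearance receptors and partners, which take up serpin-protease complexes or other ligands, 0 were called (median -0.12). Vldlr, the very low density lipoprotein receptor, averaged 1.23 CPM over the WT libraries and 2.79 CPM over those of Pak4_KO (1.17, SE 0.37, adjusted p = 0.383), and Lrpap1, a chaperone of these receptors, averaged 36.5 and 32.0 CPM (-0.19, SE 0.14, adjusted p = 0.806). Of 27 regulators of liver serpins, 0 were called and 16 were negative (median -0.06). Bcl6, a repressor in growth hormone signalling, averaged 16.4 and 9.57 CPM (-0.78, SE 0.15, adjusted p = 0.0977), and Smad3, of the TGF-beta pathway, at 13.5 and 6.72 CPM (-1.01, SE 0.30, adjusted p = 0.337).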

How the data were processed

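Per the labels' protocols, whole-liver RNA was sequenced in 6 stranded mRNA libraries. Tools named in the submitters' processing notes are StringTie 2.1.3b, Bowtie2 2.3.4.1 and HISAT2 2.1.0, in no stated order, with mm10 as the build. Neither the strand setting nor the rule for reads with several matches was stated there. The authors deposited read counts per gene, per the file headers, as whole numbers with differing library totals. The deposited TPM were used for levels between genes and in 2 alternatives. The deposited FPKM were not used.

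Counts were tested in R 4.3.3 with edgeR 4.0.16 (filterByExpr by group, TMM, quasi-likelihood F-test, two-sided, Benjamini-Hochberg over 16197 genes, call at an adjusted p under 0.05). CPM are TMM-scaled. Each standard error was derived from the log2 fold change and the square root of its F, and intervals are 95%. Paralog sums replaced their members in a second fit over all genes. Coordinates are from RefSeq GRCm38.p6, the build also called mm10, in which all 63 members were matched, and sequences are from RefSeq promoters and GENCODE M21 transcripts. The test was also run on counts simulated with the spread estimated from these 6 libraries, and the outcome is not given here. No set test was run. Values of 1 tested gene are not reported here, though counts over the family include it.

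Alternatives changed the scaling (DESeq2 size factors, library size only), the filter (none, or 10 reads or more per library) or the test (Wald test of DESeq2 1.42.0, voom of limma 3.58.1, limma-trend on log2 of TPM plus 0.1 or 1). Others blocked by replicate number, left out each library or summed paralogs. Per-library values are given for called genes, the 3 smallest p and the 3 highest levels per clade, the Serpina1 genes and the main coagulation and complement serpins. Other genes are the 2 with the smallest p per list, and genes beyond these were named after their values were seen. The members, the lists and the markers were chosen with earlier results of these data known. The alternatives on the sums were added after seeing the data.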

Additional observations from a re-analysis of the deposited data

How the results depend on the processing

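Of 33 tested serpin genes, 22 kept the sign of the log2 fold change in every alternative run, among them Serpine2, Serpina12, Serpinb1a, Serpinb6b and all 5 Serpina1 genes. The count of called serpin genes was 0 in each direction in every alternative except the DESeq2 Wald test, which called 1 higher and 2 lower. Over all genes that test called 162 higher and 143 lower, against 43 and 33 by edgeR, and at least 10 reads in every library left 16 higher. Leaving out 1 library gave 0 called serpin genes each time and between 22 and 34 higher and 13 and 47 lower over all genes. The number of serpin genes at an unadjusted p under 0.05 rose from 7 to 16 without Pak4_KO replicate 1 and was 4 without WT replicate 1. The share of all tested genes was 8.21% in the main fit and is not given here for the other fits. The change in number therefore cannot be read as particular to serpins. The cause was not tested.

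The other 11 genes reversed in at least 1 alternative, and 0 of these reversals was of a called value. With library size only, which moved the median of all genes to 0.06, the log2 fold change of Serpina10 was 0.021, Serpina3f 0.0083, Serpina3n 0.051, Serpinc1 0.043 and Serpinf1 0.013. With log2(TPM + 1) and with log2(TPM + 0.1), Serpina10 was at 0.066, Serpina3n at 0.13, Serpinc1 at 0.060 and Serpinf1 at 0.035. Serpina3n was at 0.0017 with at least 10 reads in every library and at 0.050 by limma-voom, where Serpinb10 was at 0.82. Leaving out 1 library gave -0.16 to 0.075 for Serpina10, -4.80 to 0.39 for Serpina3c, -0.52 to 0.35 for Serpina3f, -0.31 to 0.64 for Serpina3g, -0.32 to 0.037 for Serpina3m and -0.26 to 0.19 for Serpina3n. It gave -0.98 to 0.26 for Serpinb10, -0.0077 to 0.31 for Serpinb9, -0.059 to 0.081 for Serpinc1, -0.18 to 0.041 for Serpinf1 and -0.65 to 0.081 for Serpini1.

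The labels state no pairing by replicate number. Deviations of same-numbered libraries from their group means correlated at 0.0669, -0.201 and 0.147. Those of differently numbered libraries correlated at -0.243 to 0.191. With 3 libraries per group, these values cannot show whether the libraries were paired. With the replicate block 0 serpin genes were called, 39 genes were higher and 34 lower over all genes, and Serpina3n was at 0.044.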

Other observations

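Serpin pseudogenes of the same chromosome 12 cluster, which are no members of the protein-coding family, varied between libraries of 1 genotype. Serpina3e-ps (chromosome 12, 104188794 to 104194860) had 1410 reads in WT replicate 1, 1423 in WT replicate 3, and 0 in WT replicate 2 and in all 3 Pak4_KO libraries. Of the windows of 50 bases in its transcript, 21.3% occur exactly in another serpin gene, most often Serpina3f. Serpina3h (chromosome 12, 104247896 to 104254405) had 1524, 78 and 557 reads in WT and 356, 1143 and 288 reads in Pak4_KO (log2 fold change -0.41, SE 0.92, edgeR adjusted p = 0.962). Serpina4-ps1, next to the coding genes of the cluster, stood at 154, 78.3 and 107 CPM in WT and at 182, 123 and 122 CPM in Pak4_KO (0.33, SE 0.26, adjusted p = 0.830). Serpina3c and Serpina3h were both highest in WT replicate 1. WT replicate 1 was also the highest library for 10 of the 34 tested coding genes, among them Serpina11, Serpina3i, Serpina5 and Serpine2.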
